A study of Mus musculus with 2 samples.

Results

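The genes described here are the homeobox, Sox and Fox transcription factors, together with the Zic and Neurod families. Members were chosen by symbol, as numbered genes of the Lhx, Pax, sine oculis, Hox, Dlx, Emx, Nkx, Otx, Pou, Sox, Zic, Meis, Irx, Fox and Neurod families with at least 1 protein-coding transcript. The choice gave 182 members of 55536 annotated mouse genes, of which 22015 were nuclear protein-coding genes. Fox was the largest family with 44 members, followed by Sox with 19, Pou with 15 and Nkx with 14. The 4 Hox clusters held 11, 10, 9 and 9 members. Pax had 9 members and Lhx 8, Irx, Dlx and sine oculis genes had 6 each, Zic had 5, Neurod 4, Meis 3, and Otx and Emx 2 each.

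Total RNA was sequenced from adult female mice aged 8-10 months, labelled as strain 5xFAD/CAST and described as 5xFAD X Cast, a cross of those strains, from tissue labelled as a layer of the hippocampus. 5xFAD is a transgenic line in which mutant human genes of familial Alzheimer's disease are expressed from the neuronal Thy1 promoter, and CAST is a wild-derived strain of another mouse subspecies. All samples formed 1 group of 2 libraries, numbered biological replicates 1 and 2, and no control group was analysed here. The labels list a biosample record of its own for each library but 1 donor record for both, so each SD measures the spread between these samples, which may be technical. The labels do not state whether the animals of this group carried the transgenes, and no member is itself targeted in this line.

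These families bind DNA through different folds. The homeodomain of Lhx, sine oculis, Hox, Dlx, Emx, Nkx, Otx, Pou, Meis and Irx proteins places a recognition helix in the major groove. Pax proteins bind through a paired domain, and some of them also carry a homeodomain. The HMG box of Sox proteins bends the minor groove, Fox proteins carry a winged-helix forkhead domain, Zic proteins carry zinc fingers, and Neurod proteins are basic helix-loop-helix factors. In the embryo they set position along the neural tube, with Emx and Lhx2 in the telencephalon, Irx and Pax7 farther back, and Hox genes in the hindbrain and spinal cord. In the adult forebrain many persist as identity genes of neurons, oligodendrocytes, astrocytes, vessels and ventricle lining.

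The part of each coding sequence that specifies DNA contact is shown first, because the levels below depend on reads being told apart between close relatives. Stretches were read from the GENCODE M21 transcript of the member with the highest level that holds the motif. The basic region of the 4 Neurod members is given over 45 bases, with capitals where a base differs from Neurod6.
Neurod6: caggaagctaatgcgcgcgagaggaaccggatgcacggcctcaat
Neurod2: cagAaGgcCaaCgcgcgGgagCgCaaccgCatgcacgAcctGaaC
Neurod1: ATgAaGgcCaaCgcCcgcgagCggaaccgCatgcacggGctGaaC
Neurod4: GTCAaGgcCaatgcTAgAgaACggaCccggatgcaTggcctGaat
Neurod2 differed from Neurod6 at 11 bases, Neurod1 at 12 and Neurod4 at 14, which changed 2, 2 and 3 of the 15 codons to another amino acid. The homeobox of the 4 Pou3 members was closer still in protein sequence. Over 42 bases of the recognition helix, with capitals where a base differs from Pou3f3, no codon of 14 changed its amino acid.
Pou3f3: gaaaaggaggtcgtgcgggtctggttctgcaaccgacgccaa
Pou3f1: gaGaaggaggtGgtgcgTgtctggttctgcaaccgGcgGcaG
Pou3f2: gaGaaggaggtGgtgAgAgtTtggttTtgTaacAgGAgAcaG
Pou3f4: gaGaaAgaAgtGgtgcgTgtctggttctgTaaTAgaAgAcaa
Pou3f1 differed from Pou3f3 at 6 bases, Pou3f4 at 10 and Pou3f2 at 12. The recognition helix of other homeobox members is shown for genes at high, moderate and near-0 levels, with the codons of the shared core in capitals.
Lhx2: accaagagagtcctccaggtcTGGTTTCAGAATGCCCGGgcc
Emx1: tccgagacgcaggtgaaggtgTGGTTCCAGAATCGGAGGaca
Dlx1: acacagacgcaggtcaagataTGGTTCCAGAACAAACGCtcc
Otx1: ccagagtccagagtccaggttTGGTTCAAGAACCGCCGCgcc
Hoxa5: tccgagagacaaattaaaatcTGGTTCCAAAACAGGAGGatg
The start of the HMG box is shown for 3 Sox members, of which Sox14 was among those differing most between the libraries.
Sox9: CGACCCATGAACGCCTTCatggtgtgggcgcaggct
Sox2: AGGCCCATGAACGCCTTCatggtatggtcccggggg
Sox14: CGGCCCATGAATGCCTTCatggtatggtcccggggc
Counts of members were almost free of reads shared with other genes. The authors' table gives a posterior SD for each expected count, which is 0 where no read was divided between genes. Among 84 members that averaged 10 counts or more, 77 (91.7%) had a posterior SD of 0 in both libraries, against 82.4% of 14904 nuclear protein-coding genes. No member had a posterior SD above 5% of its count in either library, against 3.63% of those genes.

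The libraries held 27816845 and 32316737 expected counts, with 27682992 and 32169915 of them assigned to mouse genes. Members together took 0.194% and 0.196% of mouse gene counts. Their TPM, the level per transcript length scaled to a fixed total, summed to 818.69 and 843.2. A gene with 0 counts may hold up to 3 counts, which is 0.108 and 0.0933 CPM, the count relative to library size, for replicates 1 and 2. Intervals and floors cover counting error only, not other differences between the libraries. Reads also carry no molecular identifiers. Neuronal markers, hippocampal subfield markers, and markers of oligodendrocytes, astrocytes and endothelium were all detected. Several markers of neighbouring structures were higher in replicate 1 than in replicate 2, with summed choroid plexus markers at 594 against 251 TPM, ependymal markers at 18.9 against 11.8 TPM and thalamic markers at 69.6 against 34.9 TPM. Striatal markers were nearly level at 37.3 and 35.03 TPM, and markers of meninges and fibroblasts were higher in replicate 2, at 39.1 and 47.05 TPM. In bulk tissue, fewer cells of a type and less RNA per cell cannot be told apart.

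Most members were low in this tissue. Detection here means 1 TPM or more in each library, which held for 62 of 182 members (34.1%), against 60.2% of nuclear protein-coding genes. In 25 members (13.7%) the level was 10 TPM or more in each library, against 37.1% of those genes. At the other end, 83 members (45.6%) stayed below 0.1 TPM in both libraries, against 25.7%, and 47 (25.8%) had 0 counts in both, against 20.0%. The median member had 0.14 TPM and the median nuclear protein-coding gene 4.24 TPM. Among detected genes only, the medians were 7.67 TPM for members and 15.3 TPM for all, and the replicates differed by a median coefficient of variation of 6.06% and 5.61%.

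**Figure D1:**
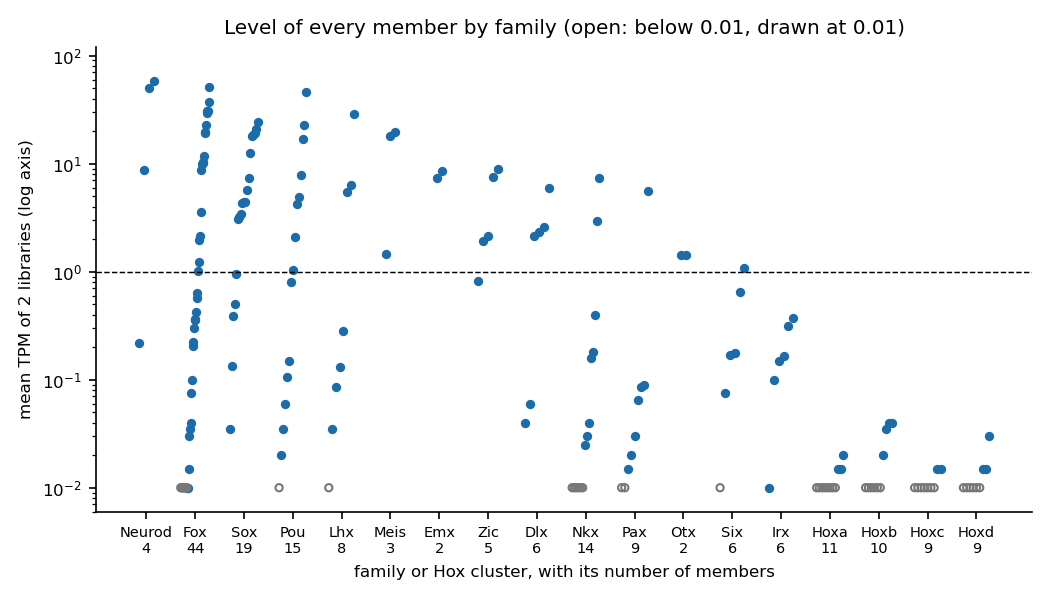
Mean TPM over 2 libraries (log axis) of every member, by family or Hox cluster, with the number of members under each name. The dashed line marks 1 TPM and open circles mark genes below 0.01 TPM, drawn at that value. All 39 Hox genes lie below 0.1 TPM, while Neurod, Fox, Pou, Sox, Lhx and Meis reach above 10 TPM.

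Families differed in both the share detected and the total level. Fox members summed to 304 ± 13.8 TPM (SD, n = 2), Sox to 151 ± 3.92, Neurod to 116 ± 13.8 and Pou to 106 ± 2.75. Fox also had the most detected members, at 18 of 44, and Neurod reached its total with 3 detected genes. Lhx (40.9 ± 1.61 TPM) and Meis (38.8 ± 0.34 TPM) were set mainly by Lhx2, Meis2 and Meis3. Zic summed to 21.3 ± 5.99 TPM, Emx to 15.9 ± 2.43, Dlx to 13.1 ± 2.16 and Nkx to 11.1 ± 2.22, and each of these 4 differed from the next by less than their SDs added together, although Emx exceeded Dlx in each library. The same held for Neurod and Pou. The lowest families outside Hox were Pax (5.86 ± 0.014 TPM, of which Pax6 gave 5.56), Otx (2.84 ± 1.20), sine oculis (2.15 ± 0.35) and Irx (1.12 ± 0.53). Detection followed family as well, at 14 of 19 Sox, 7 of 15 Pou, 4 of 6 Dlx, 4 of 5 Zic, 3 of 8 Lhx, 2 of 14 Nkx, 1 of 9 Pax, and 0 of 6 for both sine oculis genes and Irx.

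Among the highest members were factors of forebrain neurons. Neurod6, a basic helix-loop-helix factor of cortical and hippocampal pyramidal neurons, had 52.9 and 62.6 TPM in replicates 1 and 2. Neurod2, a relative of Neurod6 in the same excitatory neurons, had 45.1 and 54.3 TPM. Both were higher in replicate 2, and Neurod6 exceeded Neurod2 in each library, although their ranges over the libraries overlapped. Pou6f1, a Pou factor found widely in brain, stood at 47.5 and 43.7 TPM and ran the other way in TPM. Foxp1, a forkhead repressor of CA1 and cortical neurons, had 33.8 and 40.0 TPM.

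**Figure D2:**
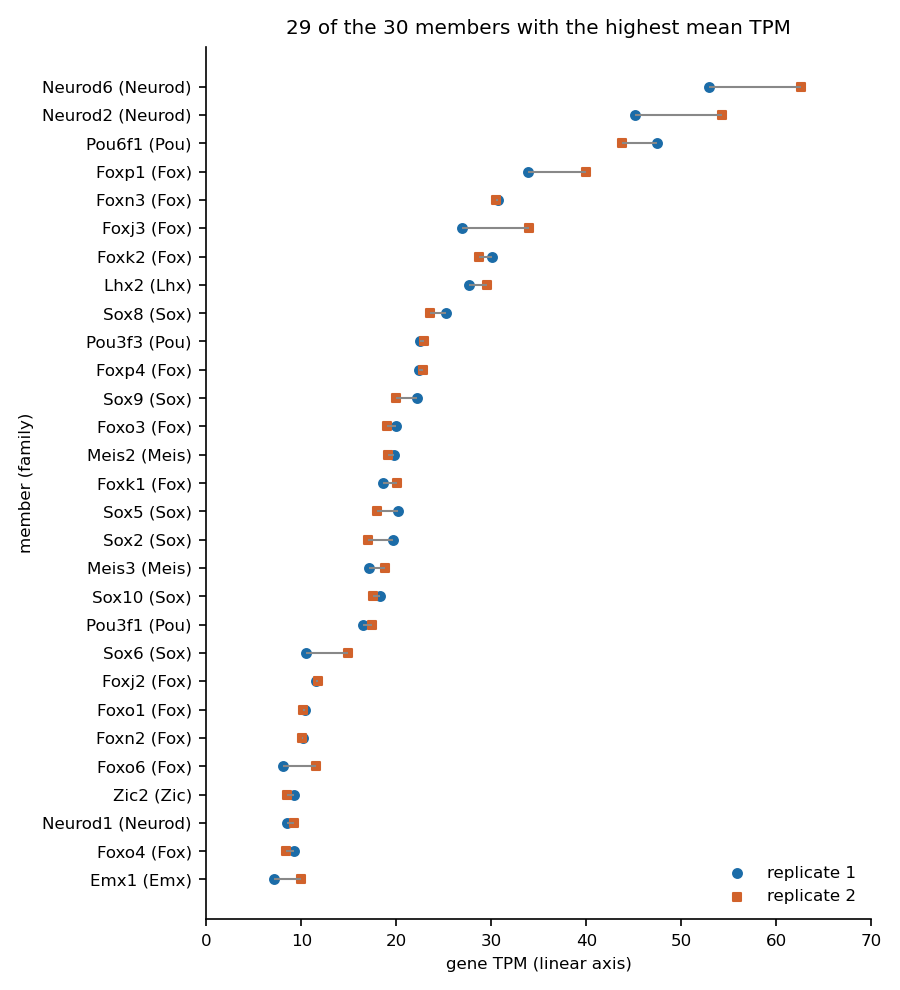
TPM of 29 of the 30 members with the highest mean, on a linear axis, with 1 point for each of 2 libraries and the family in brackets. Neurod6, Neurod2 and Pou6f1 exceed 40 TPM in both libraries, and the gap between libraries is widest on this axis for Neurod6 and Neurod2.

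All 14 members of the telencephalic neuron group were detected, with a summed level of 302 TPM in replicate 1 and 342 TPM in replicate 2. Lhx2, a LIM-homeobox gene that selects cortical over hem and antihem fate, had 27.7 and 29.6 TPM. The Pou3 genes, which act in upper-layer and CA1 neurons as well as in glia, had 22.5 and 22.9 TPM for Pou3f3, 16.5 and 17.4 for Pou3f1, and 4.08 and 4.29 for Pou3f2. Each stayed almost level between the libraries. Meis2, a TALE-class homeobox gene, had 19.8 and 19.1 TPM. Emx1, which marks the excitatory lineage of the dorsal telencephalon, had 7.13 and 9.90 TPM, whereas its paralog Emx2 had 7.0 and 7.67. Neurod1, used by newborn granule neurons, had 8.44 and 9.18 TPM, and the SoxC genes of immature neurons had 5.53 and 5.94 TPM for Sox4 and 4.43 and 4.42 TPM for Sox11.

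The log2 ratio of replicate 2 over replicate 1, from library-scaled counts, was above 0 for 13 of these 14 genes, with a median of 0.11. The median over all 14904 nuclear protein-coding genes averaging 10 counts or more was 0.02, and 56.5% of them were higher in replicate 2. The 95% counting interval lay above 0 for 5 of the 14, against 18.5% of all these genes, among them Emx1 at 0.49, Neurod2 at 0.27, Neurod6 at 0.24 and Foxp1 at 0.12. The 14 genes were chosen with earlier results of these data known, so their excess over the shares of all genes is description only. Neuronal markers moved in the same direction, with 4 of 4 higher in replicate 2 and a median of 0.13, as did 6 of 6 hippocampal subfield markers, with a median of 0.10. Their part in the members' ratios was not tested. Sox11 was the exception at a ratio of 0.00 just below 0, and between 11 and 14 of the 14 genes were higher in replicate 2 across the scalings tried.

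Factors of inhibitory interneurons were present at lower levels. Lhx6, which specifies interneurons derived from the medial ganglionic eminence, had 5.61 and 6.94 TPM. Dlx1, a homeobox gene of ganglionic eminence derivatives, had 5.29 and 6.72 TPM, Dlx2 2.56 and 2.05, Dlx5 1.69 and 2.63, and Dlx6 1.94 and 3.2. Of these 5, Dlx2 was the gene with the lower level in replicate 2. Sox6, which acts in the same lineage and in oligodendrocyte precursors, had 10.4 and 14.9 TPM. Nkx2-1 had 8 and 9 counts and Lhx8 had 0 counts in both libraries, so 6 of the 8 genes in this group were detected. Lhx8 and Nkx2-1 mark embryonic eminence cells and cholinergic or striatal interneurons. In scaled counts 5 of the 6 were higher in replicate 2 and the median was 0.18 on the log2 scale. The interval lay above 0 for Dlx5 (0.61) and, only just, for Lhx6 (0.21, interval 0.002 to 0.41). Across the scalings 4 or 5 of the 6 were higher, and the median was 0.08 from kallisto-layout counts and 0.42 from deposited TPM. Interneuron markers had a median of 0.06, with 4 of 6 higher.

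Sox6 showed how far a TPM can part from its count. Beside its 10.4 and 14.9 TPM, its counts of 907 and 1088 gave a scaled log2 ratio of only 0.07 with an interval from -0.06 to 0.20. The short transcript Sox6-207, of 331 bases, carried 4.47 and 16.2 counts, which came to 0.99 and 3.13 TPM. Sox6-211, of 448 bases, carried 0 and 19.45 counts, which came to 0 and 2.49 TPM. Some transcripts ran the other way, such as Sox6-209 at 2.58 and 1.54 TPM. In the kallisto layout Sox6-211 had 0 TPM in both libraries, and Sox6 was nearly level at 9.76 and 9.54 TPM. Sox6-210, of 8668 bases, carried 613 and 817 counts, which came to 3.64 and 4.26 TPM.

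The oligodendrocyte lineage was marked by Sox8 and Sox10. Sox8, a SoxE gene, had 25.2 and 23.5 TPM, and Sox10, the SoxE factor needed for myelin gene expression, had 18.2 and 17.5 TPM. Nkx6-2, a homeobox gene of mature oligodendrocytes, had 8.44 and 6.15 TPM, and Nkx2-2, which acts at the onset of differentiation, had 3.30 and 2.61 TPM. All 4 were lower in replicate 2 under every scaling tried, and their median was -0.29 on the log2 scale. The interval lay below 0 for Nkx6-2 (-0.51), Nkx2-2 (-0.40) and Sox10 (-0.18), and spanned 0 for Sox8 (-0.06). Oligodendrocyte markers such as Mbp were also lower in replicate 2 in 7 of 7 cases, with a median of -0.29, and their summed level was 2030 against 1648 TPM. Markers of oligodendrocyte precursors had a median of -0.02. The part of oligodendrocyte content in the members' ratios was not tested.

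Astrocyte and progenitor factors were led by Sox9 and Sox2. Sox9, a SoxE gene of astrocytes, had 22.1 and 20.0 TPM, and Sox2, the SoxB1 gene of neural stem cells and astrocytes, had 19.6 and 17.0 TPM. Pax6, a paired-homeobox gene of progenitors and astrocytes, had 5.46 and 5.65 TPM, Sox1 4.16 and 4.54, and Sox21 2.92 and 3.28. Sox3 had 0.57 and 0.43 TPM and was the member of 6 that was not detected. The intervals of Sox2 (-0.21) and Sox9 (-0.15) lay below 0, and those of the other 4 spanned it. Astrocyte markers had a median log2 ratio of -0.08, with 5 of 5 lower in replicate 2, or 3 to 5 across the scalings. For the members of this group the number lower in replicate 2 was 3 or 4 of 6, depending on the scaling.

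Vascular and meningeal factors were low and differed little. Sox18, a SoxF gene of endothelium, had 3.55 and 3.32 TPM, and Sox17, its relative in arterial endothelium, had 2.89 and 3.48. Foxc1 had 2.10 and 2.19 TPM, Foxf2 1.96 and 1.99, and Foxq1 1.00 and 1.01, forkhead genes of meninges, pericytes and brain endothelium. Of 10 genes in this group 5 were detected, and 9 passed the count filter with a median log2 ratio of -0.10 and 5 to 7 of 9 lower in replicate 2 across the scalings. Sox7, the third SoxF gene, differed from its relatives, with 82 and 44 counts, 1.30 and 0.61 TPM and a log2 ratio of -1.05 (interval -1.65 to -0.54). Sox17 and Sox18 had ratios of 0.19 and -0.10 with intervals that spanned 0, and neither interval overlapped that of Sox7. The other genes of the group lay below 1 TPM, with 68 and 64 counts for Foxd1, 35 and 27 for Foxc2, 15 and 14 for Foxf1 and 8 and 10 for Foxs1. The 6 endothelial markers had a median of 0.03, 3 higher and 3 lower. Of 5 markers of meninges and fibroblasts 3 were lower in replicate 2, with a median of -0.09, although their summed TPM was higher there.

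The FoxO genes, forkhead effectors of insulin signalling, were all detected. Foxo3 had 19.9 and 19.0 TPM, Foxo1 10.3 and 10.2, and Foxo4 9.23 and 8.33. Foxo6, the FoxO gene enriched in hippocampal neurons, had 8.08 and 11.6 TPM, and its counts of 399 and 652 gave a log2 ratio of 0.51 (interval 0.33 to 0.70). Foxo4 lay on the other side at -0.22, while Foxo1 and Foxo3 were at -0.03 and 0.02 with intervals that spanned 0. Among broadly expressed members, 11 of 13 were detected, with Foxn3 at 30.7 and 30.5 TPM, Foxj3 at 26.9 and 34.0, Foxk2 at 30.1 and 28.7, Foxp4 at 22.4 and 22.8, and Foxk1 at 18.6 and 20.0. Foxk1 and Foxk2 bind the same motif as FoxO proteins. Their scaled counts were both 0.14 higher in replicate 2 on the log2 scale, but Foxk2 was lower there in TPM. Its retained-intron transcript Foxk2-202, of 607 bases, took 21.2% of the gene's level in replicate 1 and 4.98% in replicate 2.

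The 39 Hox genes were all below the detection call. The clusters lie at chr6:52155590-52260880 (Hoxa), chr11:96194316-96368256 (Hoxb), chr15:102921103-103036852 (Hoxc) and chr2:74668310-74765142 (Hoxd) in mm10. None of the 39 had more than 2 counts in a library, and 27 had 0 counts in both. All Hox genes together held 8 counts in replicate 1 and 11 in replicate 2, and summed to 0.22 and 0.33 TPM. Outside Hox, 20 members had 0 counts in both libraries, among them 9 Fox and 6 Nkx genes. Hoxb3, with 2 and 1 counts, and Hoxb7 and Hoxb4, with 1 count in each library, were the genes with counts in both, Hoxb4 being named after its counts were seen. At this depth a gene with 0 counts may lie anywhere below 0.108 CPM in replicate 1. Markers of hindbrain and spinal cord were likewise undetected, in 0 of 4 cases, with summed levels of 0.70 and 0.65 TPM.

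The promoters of the highest member and of a Hox gene near 0 are shown as an example of members that stand far apart in CpG content. Each stretch covers the 250 bases before the start site from RefSeq (GRCm38.p6, the mm10 assembly), with CpG dinucleotides in capitals. The first belongs to Neurod6 (chr6:55681264-55681513, minus strand) and the second to Hoxa5 (chr6:52204588-52204837, minus strand).
Neurod6: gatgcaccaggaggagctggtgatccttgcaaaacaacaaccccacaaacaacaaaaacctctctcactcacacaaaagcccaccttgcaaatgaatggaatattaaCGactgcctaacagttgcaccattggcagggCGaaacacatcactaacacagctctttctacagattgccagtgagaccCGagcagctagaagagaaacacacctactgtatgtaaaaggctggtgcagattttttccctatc
Hoxa5: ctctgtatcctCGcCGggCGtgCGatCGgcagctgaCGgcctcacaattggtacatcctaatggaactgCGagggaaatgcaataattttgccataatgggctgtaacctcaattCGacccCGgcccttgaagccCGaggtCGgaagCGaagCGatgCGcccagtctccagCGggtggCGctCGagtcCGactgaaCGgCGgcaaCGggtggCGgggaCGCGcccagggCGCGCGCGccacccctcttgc
The Neurod6 stretch held 3 CpG dinucleotides and 46.0% G and C. The Hoxa5 stretch held 28 and 63.6%, and Hoxa5 had 0 and 1 counts. The median over 15376 matched promoters of nuclear protein-coding genes was 11 CpG dinucleotides. Other members showed the reverse of this pair, with 48 CpG dinucleotides in Foxk2, 34 in Foxj3 and 31 in Foxo3, against 3 in Hoxa9 and 6 in Hoxa2, which were named after their values were seen. A promoter entry within 1000 bases of the start was matched for 112 of 182 members (61.5%), under the 80% set for a property over a list, so no share over members is given.

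Members of diencephalon and midbrain were mostly lower in replicate 2. In this group of 20 genes 6 were detected and 11 passed the count filter, of which 10 were lower in replicate 2, against 43.5% of nuclear protein-coding genes. The median over these 11 was -0.55 on the log2 scale, with 9 to 11 lower across the scalings tried. This group was chosen with earlier results of these data known, so its excess over the share of all genes is description only. Zic1, a zinc finger gene of thalamic, septal and cerebellar neurons, had 587 and 342 counts, 10.3 and 4.84 TPM and a ratio of -0.97 (interval -1.17 to -0.78). Zic4 had 89 and 69 counts and a ratio of -0.55. Zic1 and Zic4 overlap on opposite strands of chromosome 9, and the posterior SD of both counts was 0 in both libraries, so no read was divided between them. The other linked pair, Zic2 and Zic5 on chromosome 14, were close to level at -0.07 and -0.13, with intervals that spanned 0.

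The largest ratios of this group came from genes with low counts. Lhx1, a LIM-homeobox gene of diencephalic and Cajal-Retzius neurons, had 28 and 7 counts and a ratio of -1.90 (interval -3.63 to -0.96). Sox14, a SoxB2 gene of thalamic and midbrain interneurons, had 26 and 2 counts and a ratio of -2.95 (interval -7.01 to -1.89). Irx1, an Iroquois gene of the posterior forebrain and midbrain, had 20 and 6 counts and a ratio of -1.62 (interval -3.53 to -0.56). Below the filter, Pax7 had 19 and 0 counts, at least 7.23-fold lower in replicate 2 with the floor of 3 counts, Irx2 had 13 and 1, and Pou4f1, a habenular gene, 9 and 1. Otx1 ran against the group at 82 and 101 counts, with a ratio of 0.11 and an interval that spanned 0. The rest of the group was near 0, with 14 and 8 counts for Six3 (ratio -0.84, with an interval that spanned 0), 11 and 5 for Irx5, 10 and 6 for Irx3, 6 and 3 for Lhx5, 2 and 1 for Foxb1, 2 and 0 for Foxa1 and 0 for Foxa2. Lhx9, another diencephalic LIM-homeobox gene, held level at 425 and 467 counts and -0.06. All 6 thalamic markers were lower in replicate 2 (5 of 6 under another scaling), at a median of -0.87, and their part in these ratios was not tested.

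The genes of ventricle lining gave the same direction. Foxj1, the master regulator of motile cilia in ependymal cells, had 240 and 127 counts, 4.84 and 2.25 TPM and a log2 ratio of -1.10 (interval -1.43 to -0.79). Otx2, which is active in choroid plexus epithelium and the diencephalon, had 87 and 18 counts, 2.27 and 0.58 TPM and a ratio of -2.33 (interval -3.29 to -1.72). Choroid plexus markers were lower in replicate 2 in 10 of 10 cases, at a median of -1.02, and ependymal markers in 6 of 6, at -0.80. Ttr, the most abundant choroid plexus transcript, had 426 and 146 TPM. How much of the difference in Foxj1 and Otx2 comes with that tissue was not tested.

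**Figure D3:**
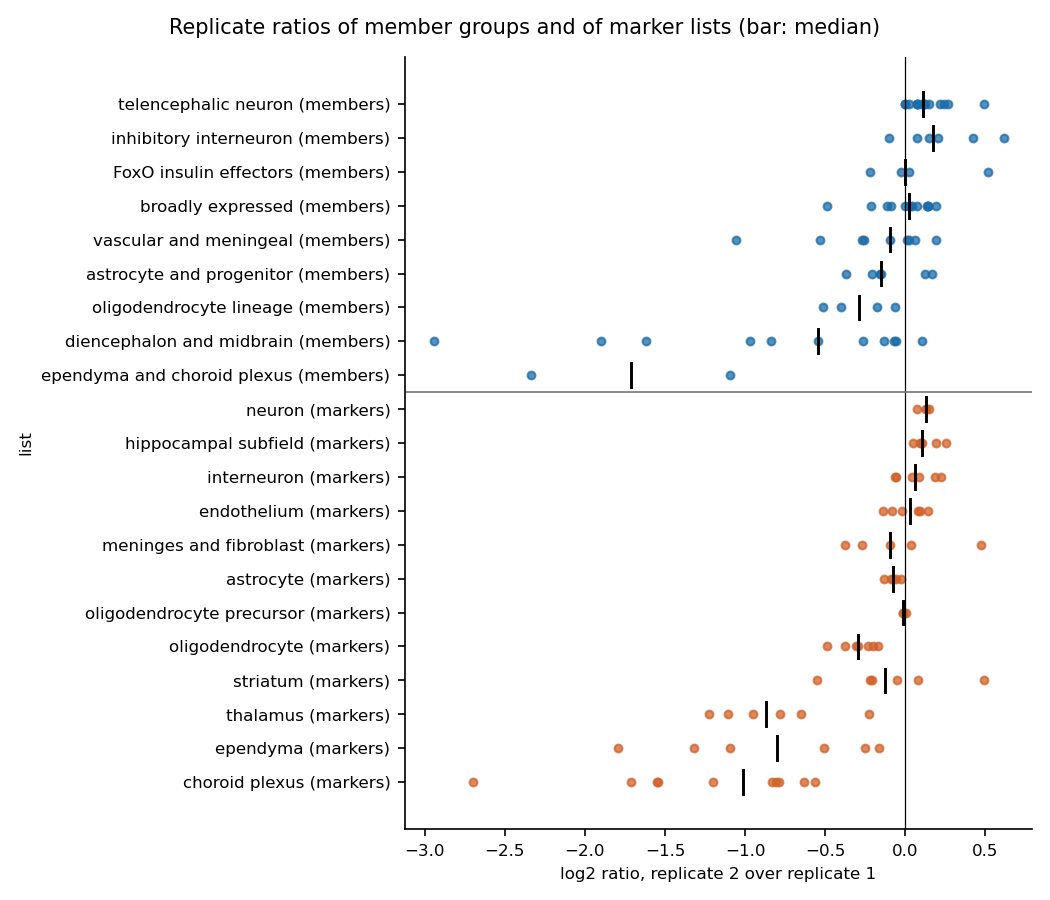
Log2 ratio of replicate 2 over replicate 1 for members by role (blue) and for cell type markers (orange), 1 point per gene with a mean count of at least 10, with a bar at each list's median. Members of diencephalon, ependyma and choroid plexus lie mostly below 0, as do thalamic, ependymal and choroid plexus markers, while telencephalic neuron members lie at or above 0.

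Across all 84 members with a mean count of at least 10, 44 were lower (52.4%, against 43.5% of nuclear protein-coding genes) and 40 higher in replicate 2, and the median ratio was -0.02 on the log2 scale (95% interval of the median -0.11 to 0.04). The typical size of the ratio, as the median without its sign, was 0.16 for members and 0.10 for all nuclear protein-coding genes. Members had lower counts, and where counts averaged 100 or more (55 members and 12243 genes) these sizes were 0.11 and 0.09. A difference of 2-fold or more was seen for 7 members (8.33%), against 1.62% of all nuclear protein-coding genes at the same filter. This background was not matched for count, and at a mean count of at least 30 the difference was seen for 3 of 71 members. No share over all genes is given at that filter, so whether the excess holds at higher counts cannot be read here. All 7 were lower in replicate 2, where the background was 1.22%, and 0 members were 2-fold higher, where it was 0.403%. They were Sox14, Otx2, Lhx1, Irx1, Foxj1, Sox7 and Foxl2, the last named after its values of 31 and 16 counts were seen. The counting interval left out 0 for 28 members (33.3%) against 28.6% of genes, which is near the background. Foxm1, a cell cycle gene, had the next highest ratio to Dlx5 at 0.60, on 26 and 45.9 counts and with an interval that spanned 0. Meis1, a TALE homeobox gene, had 90 and 67.7 counts and a ratio of -0.58 (interval -1.07 to -0.13). Over all members the interval lay below 0 for 17 (20.2%) against 10.1%, and above 0 for 11 (13.1%) against 18.5%.

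**Figure D4:**
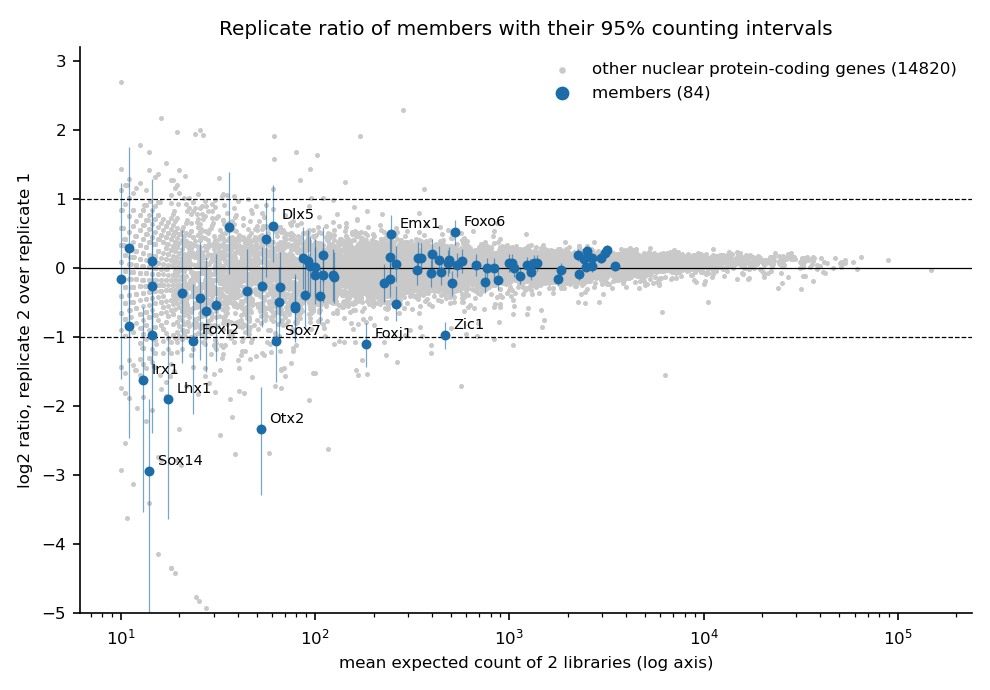
Log2 ratio of replicate 2 over replicate 1 against the mean expected count of 2 libraries (log axis), for 84 members with their 95% counting intervals (blue) and 14820 other nuclear protein-coding genes (grey). Dashed lines mark 2-fold, and intervals are drawn down to -5. Of the members below the lower line Foxj1 has the highest count, and Zic1 lies just above that line.

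Several members are genomic neighbours. Dlx6 and Dlx5 lie 9.24 kb apart on chromosome 6, on opposite strands, and had ratios of 0.42, with an interval that spanned 0, and 0.61. Dlx1 and Dlx2 lie 9.43 kb apart on chromosome 2, also on opposite strands, and had ratios of 0.15 and -0.10, with intervals that spanned 0. The median over these 4 Dlx genes was 0.28, with 3 higher in replicate 2, and 0.04 from kallisto-layout counts, with 2 higher. Foxq1 and Foxf2, 64.8 kb apart on chromosome 13, were at 0.01 and 0.02. The neighbouring forkhead genes Foxf1, Foxc2 and Foxl1, on chromosome 8, were all below 1 TPM, at 0.30, 0.57 and 0.08.

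The deposited transcript tables divide each gene's level between isoforms. Of 65 members with a mean TPM of at least 1, 22 had 1 annotated transcript and 43 had several, with a median of 3 and up to 31. The same transcript led in both libraries for 56 (86.2%), against 87.7% of nuclear protein-coding genes, and in both kinds of table for 56 (86.2%), against 83.0%. For 6 members (9.23%) the leading transcript was not annotated as protein-coding, against 7.86%. They were Foxp4, Sox5, Nkx6-2, Sox17, Zic4 and Meis1.

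In 2 of these genes the leading transcript was under 400 bases. Foxp4-208, a retained-intron transcript of 365 bases, took 40.4% and 36.7% of the Foxp4 level on 47.1 and 49.7 counts, while the coding Foxp4-204, of 3999 bases, carried 423 and 520 counts. Sox5-208, a processed transcript of 351 bases, took 36.9% and 32.8% of the Sox5 level on 36.7 and 33.1 counts. Nkx6-2 was different, since Nkx6-2-201, annotated as a target of nonsense-mediated decay, is longer at 1907 bases than the coding Nkx6-2-202 at 1299. It carried 274 and 198 of the gene's 291 and 232 counts and took 91.6% and 79.5% of its level. Sox17-205 took 42.3% and 9.33%, and Meis1-203 took 47.9% and 23.0%, and in replicate 2 the coding Sox17-204 (34.8%) and Meis1-201 (39.6%) led instead. The retained-intron Zic4-211 took 17.25% and 37.93% on 22.26 and 26.66 counts, and in replicate 1 the coding Zic4-207 (28.94%) led instead.

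Isoform shares also differed between the libraries where coding transcripts led. Sox10-201 took 89.8% of the Sox10 level in replicate 1 and 34.2% in replicate 2, and Sox10-203 took 0% and 42.9%. The counts of Sox10-201 were 840 and 352 and those of Sox10-203 were 0 and 452, while Sox10-203 took 84.7% in the kallisto layout. Zic1-201 took 38.7% of the Zic1 level in replicate 1 and 30.7% in replicate 2, and Zic1-202 took 24.7% and 52.1%. The counts of Zic1-201 were 430 and 183, and those of Zic1-202 were 135 and 153. In this division the lower Zic1 count in replicate 2 lay in Zic1-201 and in the short Zic1-203 (21.8 and 5.50 counts). In the kallisto layout all 3 were lower, with 3.51 and 1.37 TPM for Zic1-201, 3.07 and 2.17 for Zic1-202, and 2.31 and 1.89 for Zic1-203. Otx2-201 carried 45.9 and 0 counts, and Otx2-204 carried 8.70 and 12.8. These divisions are estimates made by the quantification and have no interval here.

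Gene levels from the table in the layout of kallisto, summed over transcripts, were set beside the gene table after centring on the median of all nuclear protein-coding genes. Of 65 members 0 differed by 2-fold or more, against 1.05% of 13479 genes, or 0.623% for higher levels in the kallisto layout. Foxp1 came nearest, with 36.9 ± 4.33 TPM per the gene table against 61.7 TPM per the other, a centred log2 ratio of 0.81. Pax6 (5.56 and 8.16 TPM), Foxp2 and Meis2 (19.4 and 27.7 TPM) followed at 0.63, 0.59 and 0.58. Foxn3 lay lowest at -0.41, with 30.6 and 21.9 TPM. With 1 library alone, Foxp1 passed 2-fold in replicate 1 and Zic4 in replicate 2. In Foxp1 the 7177-base Foxp1-204 carried 1526 and 1814 of 2152 and 2680 counts but took 32.4% and 28.6% of the level in the transcript table of the same layout, and 8.38% in the kallisto layout.

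**Figure D5:**
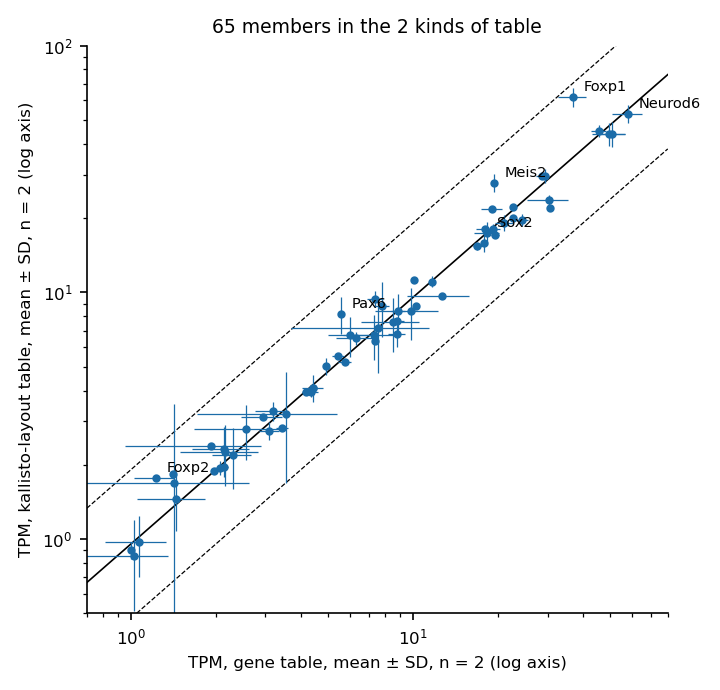
Mean TPM of 65 members in the gene table and in the table of kallisto layout (log axes), with error bars of 1 SD over 2 libraries. The solid line marks the median ratio of all nuclear protein-coding genes and dashed lines mark 2-fold around it. All 65 members lie between the dashed lines, with Foxp1 nearest to the upper one.

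Genes that work with the members were taken from lists, chosen with earlier results of these data known, and were mostly detected. The same call held for 60.2% of nuclear protein-coding genes. The LIM cofactors, which bridge or compete for Lhx proteins, were detected in 10 of 10 cases and summed to 491 ± 35.2 TPM, led by Ssbp4, Lmo4, Lmo3 and Ssbp3. Groucho corepressors were detected in 6 of 6 cases, led by Aes, Tle1, Tle3 and Tle4. E-protein partners of Neurod and their Id inhibitors were detected in 7 of 7, led by Tcf4 at 218 and 236 TPM, with Id2, Tcf12 and Id4 next. Of the TALE partners of Hox and Meis proteins 7 of 8 were detected, with Pbx2, Pknox2 and Pbx4 among the 4 highest. Eya and Dach genes, partners of sine oculis proteins, were detected in 5 of 6 cases, and Eya3 and Eya1 had a mean of 12 and 10.2 TPM. By the same call 0 of the 6 sine oculis genes were detected, but some lay close to it. Their highest mean was 1.075 TPM, and their highest counts were 77 and 97 in replicates 1 and 2. The median log2 ratios of these 5 lists lay between -0.03 and 0.12.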

How the data were processed

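Total RNA libraries of 1 group of 2 replicates were analysed. Per the file headers, the authors deposited expected counts with a posterior SD, TPM and isoform percent (IsoPct) per gene or transcript, in RSEM's layout. They also deposited kallisto-layout transcript tables of estimated counts and TPM. The build is mm10 with GENCODE M21, per the labels and the readme. The labels name a directional library kit and ERCC spike-ins. Versions of these programs were not given in the sources used here. Gene tables also held 96 spike-in rows and 26248 rows with numeric identifiers. Rows that name no gene took 0.4812% and 0.4543% of counts and were left out of library sizes. TPM was used as deposited, over all rows.

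Expected counts were rounded to whole numbers. Log2 ratios used edgeR 4.0.16 (R 4.3.3) TMM-scaled CPM (prior count 2) and were read where a gene averaged 10 counts or more. The 95% interval of a ratio is exact (Clopper-Pearson) on the 2 counts at the TMM library sizes 27922712 and 31893699. No hypothesis test was run, since 1 group allows no comparison. The calculation was tested on simulated counts that held counting error alone. Of 100 genes changed by 1.5 on the log2 scale 98.0% passed 2-fold, and of 14743 unchanged genes 0.278% did. These shares do not cover other differences between the real libraries. Tables were made with Python 3.11.15, pandas 2.3.3, numpy 2.4.6, scipy 1.17.1 and matplotlib 3.10.9, and scalings were compared with DESeq2 1.42.0 size factors.

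Members, role lists, partner lists and marker lists were chosen with earlier results of these data known. Genes named in the text are the 30 highest members, the 3 highest of each family, every role-list member, members past 2-fold or with the 5 highest or lowest ratios at a mean count of at least 30, members that differ 2-fold between tables or whose leading transcript is non-coding, antisense or overlapping noncoding genes named after a member, and the 4 highest of each partner list. Some genes that this rule names are not reported here. Sequences came from GENCODE M21 transcripts and the RefSeq promoter table of GRCm38.p6.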

Additional observations from a re-analysis of the deposited data

How the results depend on the processing

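No paired analysis was possible because all samples form 1 group. The count of detected members, 62, kept within 1.5 times under all 7 settings. The median ratio over members stayed near its value under 9 of 10 settings and was 0.043 with ERCC scaling. The count of members past 2-fold, 7 of 84 as reported, was 23 of 182 with no filter. It was 3 of 71 at a mean count of at least 30 and 1 of 55 at 100. The share of members past 2-fold therefore fell as the count filter rose, and most of the 7 members averaged under 30 counts. No share over all genes is given at these other filters. The count past 2-fold between tables, 0 as reported, was 1 in each single library (range 1 to 1). Leading non-coding transcripts numbered 3 in place of 6 at 5 TPM or more. The log2 ratio of Foxk2, 0.14 as reported, was -0.068 from deposited TPM, the 1 sign change among 27 named members whose interval left out 0. Of 47 named members whose interval spanned 0, 16 changed sign under at least 1 scaling, 6 of them from deposited TPM. Rescaling TPM over nuclear protein-coding genes raised the family sums to 29.3 (Dlx), 35.4 (Emx), 678 (Fox), 0.112 (Hoxa), 0.301 (Hoxb), 0.134 (Hoxd), 2.51 (Irx), 91.4 (Lhx), 86.8 (Meis), 260.1 (Neurod), 24.8 (Nkx), 6.38 (Otx), 13.1 (Pax), 238 (Pou), 4.81 (sine oculis), 338 (Sox) and 47.8 TPM (Zic). With the kallisto-layout table they were 0.553 (Hoxb), 0.479 (Hoxc), 0.469 (Hoxd), 47.3 (Meis), 8.73 (Pax), 103 (Pou), 2.64 (sine oculis) and 138 TPM (Sox). With 2 libraries, genes under about 30 counts give ratios limited by counting error.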

Other observations

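Noncoding genes named after a member were detected in 4 cases, and most of them fell below the call. Sox2ot, whose locus surrounds Sox2, had 16.0 and 13.7 TPM, close to the 19.6 and 17.0 TPM of Sox2, with log2 ratios of -0.27 and -0.21. Dlx6os1 (Evf2), antisense to Dlx6 and a regulator of Dlx genes, had 6.6 and 8.16 TPM, above the 1.94 and 3.2 TPM of Dlx6. Sox1ot had 3.40 and 3.45 TPM beside Sox1, and Emx2os had 1.51 and 1.21 TPM, below its partner Emx2. Otx2os1 had 7 and 0 counts and Six3os1 had 20 and 7, while Otx2 had 87 and 18 and Six3 had 14 and 8. The 5 Sox5 antisense genes (Sox5os1 to Sox5os5) had 0 counts in both libraries beside a Sox5 level of 19.0 TPM. The labels name a directional kit, but whether the counting used strand is not given in the sources used here.

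Homeobox genes outside the member families were detected in 15 of 29 cases, against 60.2% of nuclear protein-coding genes, and summed to 414 ± 11.8 TPM. Zeb2, Zeb1, Satb1 and Adnp led. Prox1, the homeobox gene of dentate granule neurons, had 26.1 and 27.4 TPM and is also 1 of the hippocampal subfield markers above.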
